A study of Homo sapiens with 12 samples.

Results

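The nuclear envelope genes described here are the 3 lamin genes LMNB1, LMNB2 and LMNA, the inner nuclear membrane protein genes LBR, EMD and TMPO, and the LINC complex genes SUN1, SUN2, SYNE1 and SYNE2. These 10 genes were taken by symbol from a table of 62069 genes, and each was matched to 1 Ensembl identifier. All 10 passed the filter on low counts that left 15284 genes for testing. The counts came from IMR90 ER:RAS cells, a human lung fibroblast strain that carries an oncogenic RAS fused to an oestrogen receptor domain, so that 4-hydroxytamoxifen (4OHT) switches RAS on and drives oncogene-induced senescence (OIS). The 4 groups had 3 RNA-seq libraries each, all from passage 13 cells grown for 7 days and labelled as day 5 of induction. The vector group was not induced, the vector/4OHT group received 100 nM 4OHT, and the shXPO7_3/4OHT and shXPO7_5/4OHT groups received 100 nM 4OHT and expressed 1 of 2 shRNAs against XPO7, a nuclear transport receptor. Every group therefore carried the ER:RAS construct, and no library combined an shRNA against XPO7 with uninduced cells. Nothing in the labels ties the 3 libraries of a group to separate cultures, and the p-values then describe library-to-library spread alone, which could be technical.

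Lamins are intermediate filament proteins that form a mesh under the inner nuclear membrane. B-type lamins, from LMNB1 and LMNB2, keep a lipid anchor in the membrane, whereas LMNA encodes lamins A and C, which also occur in the nuclear interior. LBR, emerin (from EMD) and the LAP2 proteins (from TMPO) sit in or at the inner membrane and hold chromatin to the lamina, and the SUN and nesprin proteins (from SYNE1 and SYNE2) span both membranes to couple the lamina to the cytoskeleton as the LINC complex. Loss of lamin B1 is widely used as a mark of senescence.

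Depth was between 28534141 and 60397769 counts a library. XPO7, the targeted gene, stood at 27.7 ± 1.14 CPM (counts scaled to library size with TMM factors; SD, n = 3) with shXPO7_3 and 52.2 ± 1.62 CPM with shXPO7_5, against 137 ± 8.81 CPM in vector/4OHT. Fibroblast markers (10 of 10 measured) summed to 45178 to 53527 CPM in vector, 39810 to 46052 CPM in vector/4OHT, 38079 to 47477 CPM with shXPO7_3 and 41338 to 49733 CPM with shXPO7_5. After 4OHT 5 of these 10 markers were called lower and 0 higher by edgeR, with log2 fold changes of -3.37 for DCN and -1.16 for COL1A2, both named after their values were seen. The endothelial markers PECAM1 and CDH5 and the T cell marker CD3E were at 0 throughout. The epithelial marker list summed to 69.1 to 84.6 CPM in vector and 40.1 to 46.3 CPM in vector/4OHT, and that of smooth muscle to 394 to 439 CPM and 176 to 183 CPM. The part of these markers in the changes below was not tested. In bulk RNA, fewer cells that express a gene and less of its RNA per cell cannot be told apart.

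The stretches before the transcription starts of 4 members are shown because they set LMNB1, LMNA and TMPO, which fell together after 4OHT, beside SYNE1, which was not called. They are RefSeq promoter sequences of GRCh38.p14, 5′ to 3′ on the strand of the gene, cut where an annotated exon begins, and capitals mark CCAAT.
LMNB1 (chr5:126776373-126776622, plus strand): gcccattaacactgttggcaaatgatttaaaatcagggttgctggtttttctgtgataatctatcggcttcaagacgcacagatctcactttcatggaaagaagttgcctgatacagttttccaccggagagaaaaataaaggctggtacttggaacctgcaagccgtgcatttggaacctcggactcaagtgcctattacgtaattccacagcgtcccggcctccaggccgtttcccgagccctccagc
LMNA (chr1:156082323-156082572, plus strand): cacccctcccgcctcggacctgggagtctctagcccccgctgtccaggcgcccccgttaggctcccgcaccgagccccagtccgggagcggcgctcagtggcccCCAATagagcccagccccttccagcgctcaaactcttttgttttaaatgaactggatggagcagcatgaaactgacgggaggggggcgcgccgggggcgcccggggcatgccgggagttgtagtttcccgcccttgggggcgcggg
TMPO (chr12:98515323-98515511, plus strand): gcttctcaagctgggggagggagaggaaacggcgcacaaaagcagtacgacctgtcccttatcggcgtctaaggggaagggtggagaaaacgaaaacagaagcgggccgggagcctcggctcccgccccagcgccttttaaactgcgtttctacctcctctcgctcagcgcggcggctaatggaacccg
SYNE1 (chr6:152636891-152637140, minus strand): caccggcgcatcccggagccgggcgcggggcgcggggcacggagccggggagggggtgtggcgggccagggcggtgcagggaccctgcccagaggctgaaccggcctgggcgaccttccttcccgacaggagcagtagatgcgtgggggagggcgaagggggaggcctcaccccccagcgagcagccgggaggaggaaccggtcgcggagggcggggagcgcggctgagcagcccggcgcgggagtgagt
RefSeq gave 20 starts for 9 members, and SUN1 had none in the table. The 250 bases before each start were searched on both strands for the E2F letters TTTCGCGC and TTTGGCGC, the CHR letters TTTGAA and TTCGAA, and CCAAT, none of which contains another. Neither E2F string nor TTCGAA occurred before any member start, against 0.439%, 0.55% and 1.19% of all 35116 starts. TTTGAA occurred before 2 of 20 member starts, those of LMNB2 and SUN2, against 13.3% of all starts. CCAAT occurred before 8 of 20 member starts (40.0%), of 7 genes that included both LMNB1 and SYNE1, against 32.0% of all starts. The matches of LMNB1 and TMPO lie in annotated exon bases and that of SYNE1 lies before another of its starts, so they are not among the letters shown.

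The comparison of vector/4OHT with vector asked how OIS changes the transcriptome. The levels of 9 of the 10 genes fell after 4OHT and none rose, by edgeR's quasi-likelihood test with Benjamini-Hochberg adjustment over all 15284 genes. In this comparison 50.9% of all tested genes were called. Lower calls made up 26.1% and higher calls 24.8% of all tested genes, so that a call by itself was common. The median log2 fold change was -0.80 over the 10 genes and -0.0068 over all genes tested. SYNE1 was the exception, at 105.7 CPM in vector and 114 CPM in vector/4OHT. No vector/4OHT library reached the lowest vector library for those 9 genes, a pattern that 31.4% of all tested genes showed in the lower direction.

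Among the lamins, LMNB1 had the largest fall. The vector libraries held 74.2, 80.5 and 79.3 CPM and the vector/4OHT libraries 9.43, 9.14 and 9.18 CPM. The induced level was 11.9% of that in vector, a log2 fold change of -3.08 (SE 0.0871, edgeR adjusted p = 7.26e-11), and only 98 of the other tested genes fell more. It was the member with the smallest relative spread in vector/4OHT, with an SD of 1.67% of the mean.

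LMNA read 807, 771 and 708 CPM in vector and 349, 356 and 367 CPM in vector/4OHT. Its log2 fold change was -1.09 (SE 0.102, edgeR adjusted p = 2.42e-06), which left 46.9% of the vector level. LMNB2, the other B-type lamin gene, went from 212, 203 and 182 CPM to 109, 114 and 114 CPM, a log2 fold change of -0.82 (SE 0.0902, edgeR adjusted p = 9.42e-06). LMNB2 shares 257 exon bases with TIMM13 on the same strand, which held 1046 to 2304 counts a library.

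Because the genes differ in exon length, levels were compared between genes only as CPM per kilobase of merged exon. In vector the lamin order was LMNA at 109 ± 7.16, LMNB2 at 36.7 ± 2.84 and LMNB1 at 21.5 ± 0.928 CPM per kilobase (SD, n = 3), with no overlap between neighbours. In vector/4OHT LMNA stood at 51.1 ± 1.30, LMNB2 at 20.7 ± 0.503 and LMNB1 at 2.55 ± 0.0426 CPM per kilobase. LMNB1 thus moved from place 4 to place 8 of the 10 genes, where its range overlapped that of SYNE1 at 2.47 ± 0.257 CPM per kilobase. By the length of the longest transcript it moved from place 6 to place 9, below SYNE1.

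Per kilobase, LMNB1 made up 11.7%, 13.1% and 13.9% of the summed lamin transcripts in the vector libraries. It made up 3.57%, 3.38% and 3.32% in vector/4OHT, so the 3 lamins did not fall by the same factor. The means were 12.9% ± 1.14 and 3.43% ± 0.131 (SD, n = 3), and the exact two-sided permutation test gave p = 0.1, the smallest value that 3 libraries against 3 allow. With the length of the longest transcript in place of merged exons the difference was -5.49 in place of -9.46 percentage points.

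All 3 inner membrane genes were lower after 4OHT, by different amounts. TMPO, whose LAP2 proteins bind lamins and the DNA-bridging protein BAF, went from 126, 134 and 146 CPM to 48.6, 48.9 and 50.6 CPM. This was 36.4% of the vector level, with a log2 fold change of -1.46 (SE 0.118, edgeR adjusted p = 6.15e-07). TMPO shares 713 exon bases with the antisense gene TMPO-AS1, which held 10 to 154 counts a library against 1308 to 5522 for TMPO. TMPO-AS1 was also lower after 4OHT (log2 fold change -3.07, SE 0.272, edgeR adjusted p = 1.46e-06). No source used here gives the strand setting of the counting, and reads of the pair cannot be told apart if strand was ignored. The pseudogenes TMPOP1 and TMPOP2 held at most 4 counts.

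LBR, a receptor that binds B-type lamins and heterochromatin protein 1, read 44.5, 49.8 and 54.3 CPM in vector and 29.1, 28.2 and 29.7 CPM in vector/4OHT. The log2 fold change was -0.77 (SE 0.121, edgeR adjusted p = 0.000189). EMD, which encodes the LEM domain protein emerin, changed least among the genes called, from 64.1, 62.1 and 54.9 CPM to 46.6, 49.0 and 49.4 CPM. Its log2 fold change of -0.32 (SE 0.101, edgeR adjusted p = 0.0186) missed the threshold without vector replicate T (adjusted p = 0.0647) or without vector/4OHT replicate T (adjusted p = 0.0697). Over its 15 alternatives the adjusted p of EMD ran from 0.000193 to 0.0697.

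Of the LINC genes, both SUN genes and SYNE2 fell while SYNE1 was not called. SUN1, which encodes an inner membrane partner of the nesprins, went from 125, 117 and 111 CPM to 77.0, 73.4 and 79.4 CPM (log2 fold change -0.62, SE 0.0642, edgeR adjusted p = 6.11e-06). SUN2 went from 73.0, 71.6 and 65.5 CPM to 47.7, 46.6 and 49.5 CPM (log2 fold change -0.55, SE 0.0924, edgeR adjusted p = 0.000346). The 95% intervals of the 2 changes overlapped, and the SUN1 share of SUN transcripts was 48.0% ± 0.634 in vector and 46.7% ± 0.322 in vector/4OHT (exact permutation p = 0.1). SUN1 shares 1842 exon bases with GET4 on the same strand. GET4 held only 16 to 59 counts a library, against 2070 to 4806 for SUN1, so few SUN1 reads can have been assigned to it. SUN2 shares 680 exon bases with GTPBP1 on the opposite strand (1146 to 2841 counts a library) and 76 with DNAL4 on the same strand (263 to 566). Part of the SUN2 reads may have been assigned to a neighbour.

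The nesprin genes SYNE2 and SYNE1 stood at opposite ends of this group. SYNE2 (nesprin-2) read 16.6, 18.5 and 21.5 CPM in vector and 7.68, 6.84 and 5.55 CPM in vector/4OHT, which is 35.5% of the vector level (log2 fold change -1.50, SE 0.138, edgeR adjusted p = 2.07e-06). SYNE1 (nesprin-1) read 94.8, 104 and 118 CPM in vector and 124, 116 and 101 CPM in vector/4OHT, and these ranges overlapped. Its log2 fold change was 0.11 with a 95% interval of -0.14 to 0.35 (edgeR adjusted p = 0.454), so a rise of that size or a small fall could not be told from no change.

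Per kilobase, SYNE1 was 79.5%, 79.3% and 79.0% of the summed nesprin transcripts in vector and 91.7%, 92.0% and 92.5% in vector/4OHT. The groups did not overlap, and the exact permutation test gave its smallest p of 0.1. Both genes have short and giant isoforms, which gene counts do not separate.

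The genes with the profile nearest to LMNB1 were sought by the root mean square difference of log2 CPM, each gene centred on its own mean over the 12 libraries, among the 10686 tested genes whose mean log2 CPM reached 2. They were PRC1 at a difference of 0.12, CENPA at 0.13, MKI67 at 0.13, PKDCC at 0.17 and CDKN3 at 0.17. PRC1 bundles microtubules in dividing cells, CENPA is the centromeric histone, and MKI67 encodes the proliferation antigen Ki-67. For SYNE1 the nearest were SMG1 at 0.06, ASH1L, TJP1, KDM1B and CDC42SE2 at 0.07. Log2 fold changes after 4OHT ran from -3.30 for MKI67 to -2.78 for PKDCC in the first set and from 0.076 for KDM1B to 0.16 for CDC42SE2 in the second.

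Other envelope genes moved in both directions. Of 17 other envelope and lamina-binding genes, all tested, 6 rose, 7 fell and 4 were not called after 4OHT, with a median log2 fold change of 0.12. The largest changes in this list were falls. NRM, which encodes the inner membrane protein nurim, was at 17.6 ± 1.58 CPM in vector and 6.16 ± 0.580 CPM in vector/4OHT (SD, n = 3; log2 fold change -1.51, SE 0.157, edgeR adjusted p = 5.92e-06). ANKLE1, a LEM domain nuclease, was at -0.92 on 12 to 44 counts a library, and its call held in 9 of 14 alternatives. Next came the membrane protein gene NEMP1 at -0.66, the heterochromatin protein genes CBX5 and CBX1 at -0.56 and -0.54, and TMEM43 at -0.47. Among the 6 that rose were LEMD3, a LEM domain relative of emerin, at 0.43, and TOR1AIP1, a lamin-binding activator of torsins, at 0.42, both named here after their values were seen.

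**Figure D1:**
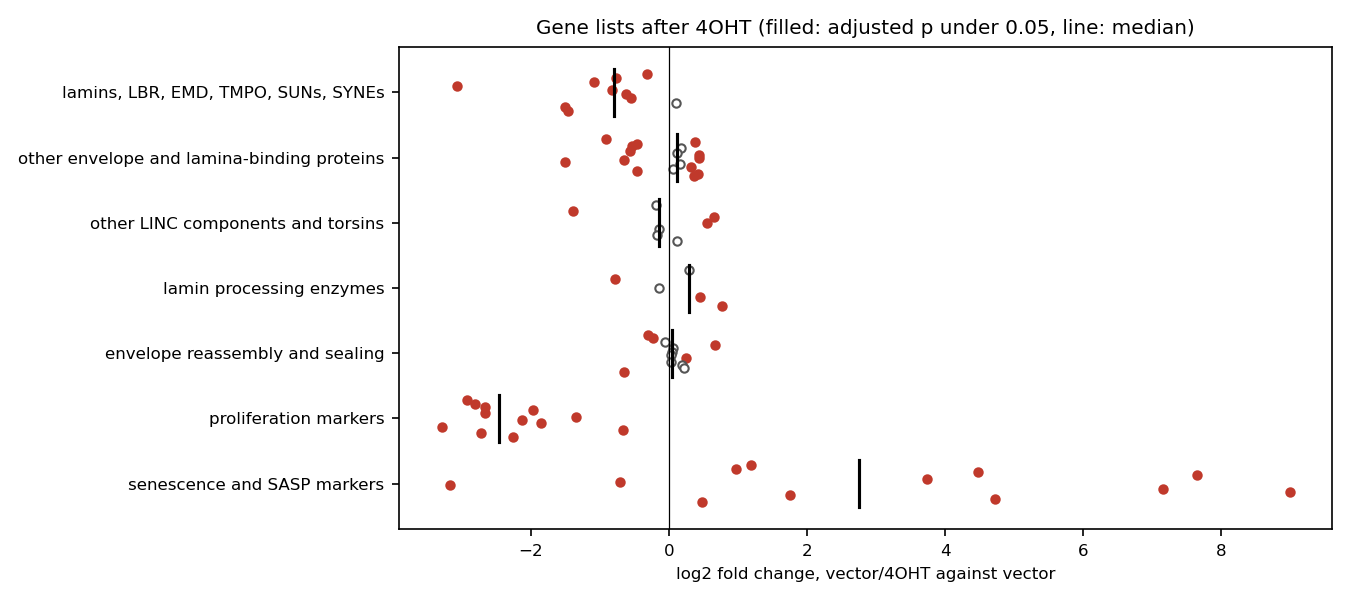
Log2 fold change of vector/4OHT against vector (horizontal axis) for each tested gene of 7 lists, with filled points for an adjusted p under 0.05 and a line at the median of the list. The medians are -0.80 for the lamins, inner membrane and LINC genes, 0.12 for other envelope genes and -2.46 for proliferation markers.

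Only 7 of the 12 other LINC and torsin genes had enough counts to be tested, and the germ cell genes SUN5 and KASH5 were at 0 CPM in vector and vector/4OHT. SYNE3 (nesprin-3, which links to intermediate filaments) fell from 12.6 ± 1.8 to 4.81 ± 0.701 CPM (SD, n = 3; log2 fold change -1.39, SE 0.148, edgeR adjusted p = 7.83e-06). TOR1A and TOR1B, ATPases of the lumen between the nuclear membranes, rose by 0.65 and 0.55, and 4 genes were not called.

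All 5 lamin processing genes were tested, of which 2 rose and 1 fell. ZMPSTE24, the protease that matures prelamin A, rose from 115 ± 7.88 to 196 ± 6.44 CPM (SD, n = 3; log2 fold change 0.77, SE 0.0992, edgeR adjusted p = 4.01e-05), while its substrate gene LMNA fell as given above. RCE1, which trims farnesylated proteins, rose by 0.45, and FNTB, a farnesyltransferase subunit, had a log2 fold change of -0.78. FNTB was low, at 1.08 to 1.42 CPM in vector and 0.638 to 0.787 CPM in vector/4OHT. Among 12 genes of envelope reassembly and sealing, CHMP7 (0.67) and LPIN1 (0.24) rose, VRK1 (-0.65), CHMP2A (-0.30) and CHMP3 (-0.23) fell, and 7 were not called. The call held in 11 of 15 alternatives for CHMP2A, in 13 for VRK1, and in 14 for both CHMP3 and LPIN1.

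Proliferation and senescence markers were called throughout. All 12 proliferation markers fell, led by MKI67 at -3.30, AURKB at -2.93, BUB1 at -2.80 and TOP2A at -2.72, and the list median was -2.46. Of 12 senescence and secretory markers 10 rose, led by IL1B at 8.99, CXCL8 at 7.65 and IL1A at 7.17, and the chromatin protein genes HMGB2 (-3.18) and HMGB1 (-0.72), named as the other 2, fell.

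The comparisons of each shXPO7 group with vector/4OHT asked what XPO7 knockdown changes in induced cells. Both share the vector/4OHT libraries. By edgeR's quasi-likelihood test none of the 10 genes was called with shXPO7_3, where 0.124% of all genes were called, nor with shXPO7_5, where 0.589% were. At an unadjusted p under 0.05 there was 1 member with shXPO7_3, of 979 genes (6.41%) in all. With shXPO7_5 there were 5 members, of 3302 genes (21.6%) in all. DESeq2 called 0 of 10 in each comparison, although it called more of all genes than edgeR did, as given in the last section. The median log2 fold change of the 10 genes was 0.068 with shXPO7_3 and 0.076 with shXPO7_5, against -0.0031 and 0.0058 for all genes.

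**Figure D2:**
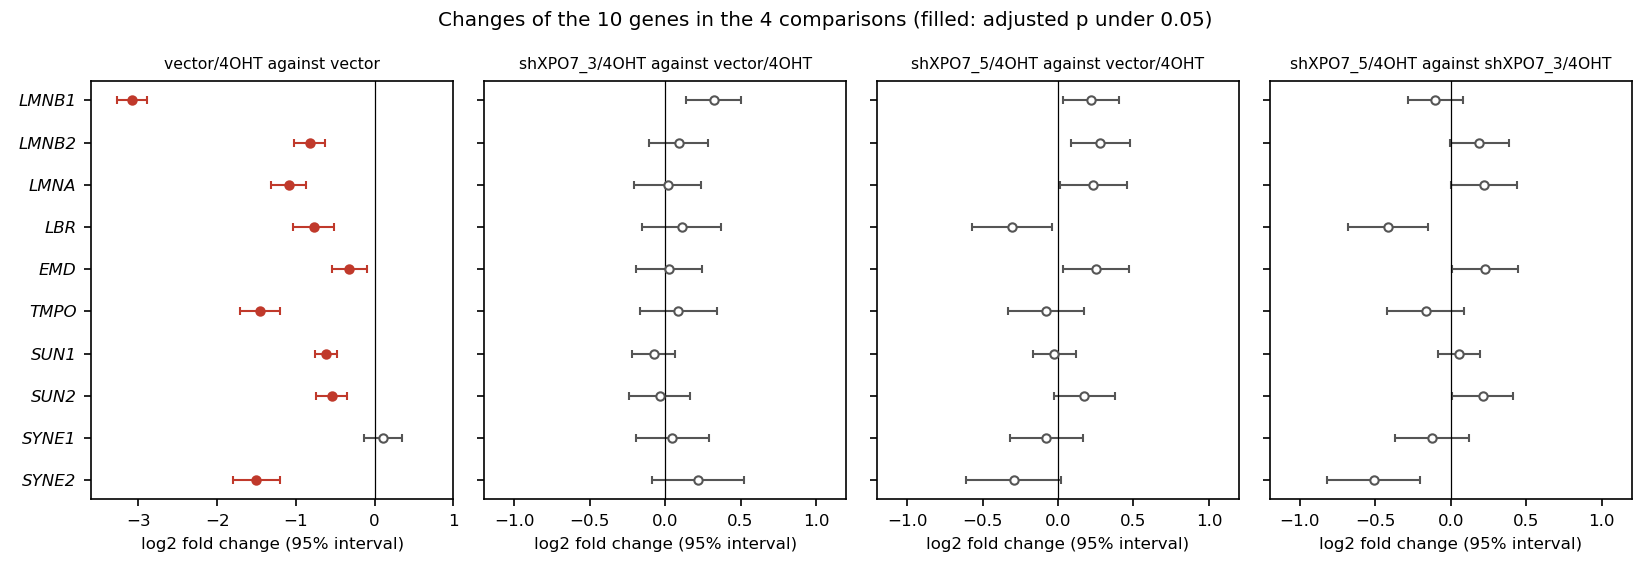
Log2 fold change (horizontal axes, with 95% intervals from edgeR's fit) of the 10 genes in the 4 comparisons, with filled points for an adjusted p under 0.05. Of the 10 genes, 9 are filled after 4OHT alone, and 0 in the 3 comparisons that involve an shRNA.

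LMNB1 was the member whose values stood above vector/4OHT in every library of both knockdowns. It read 11.7, 12.6 and 10.4 CPM with shXPO7_3 and 10.3, 11.4 and 10.5 CPM with shXPO7_5, against 9.14 to 9.43 CPM in vector/4OHT. The log2 fold changes were 0.32 (SE 0.0843, 95% interval 0.14 to 0.50, edgeR adjusted p = 0.260) and 0.22 (SE 0.0851, 95% interval 0.032 to 0.40, edgeR adjusted p = 0.204), so neither passed the threshold. Over the alternatives the adjusted p ran from 0.0455 to 0.893 with shXPO7_3 and from 0.112 to 0.574 with shXPO7_5. Even so the level stayed at 14.8% and 13.8% of that in vector. Groups that do not overlap in the higher direction occurred for 7.46% of all genes with shXPO7_3 and 14.2% with shXPO7_5.

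The proliferation marker MKI67 read 27.5 ± 2.52 CPM in vector/4OHT, 35.9 ± 1.01 CPM with shXPO7_3 and 35.5 ± 3.37 CPM with shXPO7_5 (SD, n = 3). Its log2 fold changes of 0.38 and 0.37 did not pass the test either (edgeR adjusted p = 0.167 and 0.0855). AURKB was the 1 of 12 proliferation markers called, at 0.63 with shXPO7_5 (edgeR adjusted p = 0.0285), a call that held in 9 of 15 alternatives. The list median was 0.20 with each shRNA, against -0.0031 and 0.0058 for all genes. Markers on the other side of 0 included TOP2A (-0.29), CDK1 (-0.24), PCNA (-0.11) and TYMS (-0.037) with shXPO7_5, and E2F1 (-0.067), PCNA (-0.038) and TYMS (-0.022) with shXPO7_3, all uncalled and named after their values were seen.

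With shXPO7_3 the other 9 genes lay between -0.077 for SUN1 and 0.22 for SYNE2, each with a 95% interval that included 0. The widest of these intervals was that of SYNE2, from -0.088 to 0.52, and the narrowest that of SUN1, from -0.22 to 0.063. A list gene of the same compartment was called, since TOR1B fell to 41.5 ± 4.17 CPM from 63.2 ± 1.61 CPM (SD, n = 3; log2 fold change -0.61, SE 0.10, edgeR adjusted p = 0.0489), which held in 6 of 15 alternatives. With shXPO7_5 TOR1B was at 63.1 ± 6.54 CPM, close to vector/4OHT.

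With shXPO7_5 the signs of the uncalled values followed the GC content of the longest transcript at both ends of its range. LMNB2, LMNA and SUN2, at 60.8% to 61.5% GC, had log2 fold changes of 0.28, 0.24 and 0.18, and EMD, next in GC content, had 0.25. LBR, TMPO and SYNE2, at 37.8% to 42.9% GC, had -0.31, -0.079 and -0.29. The groups did not overlap for LMNB1, LMNB2, LMNA and EMD in the higher direction (14.2% of all genes) and for LBR in the lower direction (12.6% of all genes).

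LMNA gives an example of the values behind this, with 408, 369 and 485 CPM with shXPO7_5 against 349, 356 and 367 CPM in vector/4OHT. LBR read 23.6, 27.0 and 19.8 CPM against 29.1, 28.2 and 29.7 CPM. In both genes replicate A lay nearest to vector/4OHT and replicate B farthest.

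The libraries also differed by GC content over all genes. GC content was compared with the log ratio of 1 library to the 12-library mean. The measure was the Spearman correlation across genes, which are not independent replicates. With shXPO7_5 it was 0.449 for T, -0.257 for A and 0.681 for B. In vector/4OHT it was -0.357 for T, -0.372 for A and -0.191 for B. Libraries with shXPO7_3 were split as well, at 0.358 for T but -0.487 for A and -0.439 for B. Uninduced vector libraries had 0.264 for T, 0.0043 for A and -0.209 for C. A spread within a group was therefore not particular to shXPO7_5. With an offset for GC content and length in the fit, the shXPO7_5 log2 fold changes became 0.039 for LMNB2, 0.025 for EMD, -0.017 for LMNA, -0.063 for SUN2 and -0.019 for LBR. LMNB1, at 51.1% GC, went from 0.22 to 0.11 with shXPO7_5 and from 0.32 to 0.31 with shXPO7_3. With the offset the fall after 4OHT remained called for the 9 genes, at -3.02 for LMNB1 and -0.26 for EMD.

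The calls with shXPO7_5 depended on every library of that comparison, and leaving out replicate A of shXPO7_5/4OHT was the only such fit that called a member. Without it LMNB2 (0.36), LMNA (0.32) and EMD (0.34) were called higher and LBR (-0.42) lower, at edgeR adjusted p of 0.0320 to 0.0415. In that fit 3634 of the 15790 genes tested were called, so that a call by itself was far more common than with all libraries. The 2 shXPO7_5/4OHT libraries left, T and B, had the positive GC correlations of that group. The part of GC content in these calls was not tested.

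Direct comparison of the shRNAs called none of the 10 genes by edgeR, where 0.0131% of all genes were called. At an unadjusted p under 0.05 there were 4 members, of 1819 genes (11.9%) in all. DESeq2 called 0 of 10, although it called more of all genes than edgeR did, as given in the last section. XPO7 itself was higher with shXPO7_5, by 0.92 (SE 0.0717, edgeR adjusted p = 0.000387). The lowest unadjusted members were SYNE2, at 8.67, 7.31 and 7.28 CPM with shXPO7_3 and 4.99, 6.01 and 5.30 CPM with shXPO7_5, and LBR, at 27.0, 33.3 and 33.5 against 23.6, 27.0 and 19.8 CPM. Their log2 fold changes were -0.51 (95% interval -0.82 to -0.20) and -0.42 (95% interval -0.68 to -0.15), both at an edgeR adjusted p of 0.388, and they were -0.36 and -0.15 with the GC and length offset. SYNE2 and LBR did not overlap between the shRNAs in the lower direction (4.17% of all genes), nor did SUN1 in the higher direction (5.54%), where the log2 fold change was 0.053. LMNB1 did not separate the shRNAs, at -0.10 with a 95% interval of -0.29 to 0.080.

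Within the families, the LMNB1 share of lamin transcripts was 4.17% ± 0.596 with shXPO7_3 and 3.40% ± 0.580 with shXPO7_5, against 3.43% ± 0.131 in vector/4OHT (SD, n = 3). Only the first did not overlap vector/4OHT (exact permutation p = 0.1, and 0.9 for the second). The SUN1 share was 46.1% ± 1.85 and 43.4% ± 2.23, against 46.7% ± 0.322, where the second did not overlap (exact permutation p = 0.1). GC content of the longest transcript is 49.3% for SUN1 and 60.8% for SUN2. The SYNE1 share was 91.2% ± 1.12 and 93.1% ± 0.596, against 92.1% ± 0.427, with overlap in both cases. Across the 9 libraries with 4OHT the order of the 10 group means per kilobase of merged exon was the same in all 3 groups, from LMNA and EMD at the top to LMNB1, SYNE1 and SYNE2 at the bottom. The ranges of several neighbours overlapped, among them LMNB2 with EMD and TMPO with SUN1 and LBR in both knockdown groups. By longest transcript TMPO and SUN2 changed places with shXPO7_3, and SYNE1 stood above LMNB1 in the 3 groups.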

How the data were processed

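Total RNA of 12 libraries was prepared with a stranded mRNA kit. Per the labels and the submitters' processing notes, the authors called bases with CASAVA 1.8.4, aligned reads with TopHat2 2.0.11 and counted them per gene with featureCounts 1.18.0 on hg19/GRCh37. The deposited values are raw counts. Which annotation and strand setting were used, and how multiply mapped reads were treated, is not given in the sources used. The 92 spike-in entries held 0 counts.

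Groups came from the sample titles. The group names vector and vector/4OHT follow the study. Library totals ran from 28534141 to 60397769 counts, and no 2 libraries of a group agreed within sampling noise. Counts were kept for 15284 genes by edgeR's filterByExpr, scaled by TMM and fitted over all 12 libraries with edgeR 4.0.16 (quasi-likelihood test, R 4.3.3). Calls required an adjusted p under 0.05 (Benjamini-Hochberg, over all genes tested). The fit was tested on simulated data. CPM per kilobase used merged exon lengths of GENCODE 29, which is on another build than the counts and was matched by gene identifier, so gene coordinates are not given. Shares were compared by exact two-sided permutation tests. The offset for GC content and length used 97.3% of the tested genes, those with both values.

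Alternatives were relative log expression (RLE) and upper-quartile factors, no filter and a filter of 1 CPM in 6 libraries, a replicate block, the 2 groups of a comparison alone, the GC and length offset with and without the block, DESeq2 1.42.0, and leaving out each library in turn.

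The 10 genes and all gene lists were chosen with earlier results of these data known. Values are printed for the 10 genes, XPO7, MKI67, up to 6 called genes of each list and comparison by size of change, and the 5 nearest profiles to LMNB1 and to SYNE1. Genes outside this rule that are named after their values were seen are LEMD3, TOR1AIP1, HMGB1, HMGB2, DCN, COL1A2, the germ cell genes SUN5 and KASH5, and the uncalled proliferation markers.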

Additional observations from a re-analysis of the deposited data

How the results depend on the processing

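After 4OHT, LMNB1, LMNB2, LMNA, LBR, TMPO, SUN1, SUN2 and SYNE2 were called lower under all 15 alternatives tried, and SYNE1 was called, at 0.30, only with the GC and length offset and the replicate block together. Of the 150 values of the 10 genes after 4OHT, 147 kept their direction and side of the threshold. The number of genes called after 4OHT was 6762 to 7421 when 1 library was left out.

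With shXPO7_3, 19 genes were called. The number was 8 with upper-quartile factors, 30 without a filter, 356 with the GC and length offset, 378 with the offset and the replicate block, 2 when 2 groups were fitted alone, 82 by DESeq2, and 1 without any 1 of the 6 libraries. The offset with the replicate block called 1 member, LMNB1 (0.30). With shXPO7_5, 90 genes were called. The number was 217 without a filter, 149 with the replicate block, 475 with the offset, 965 with the offset and the replicate block, 10 when 2 groups were fitted alone, 374 by DESeq2, and 2 to 3634 without 1 library, where members called ran from 0 to 4. It was 2 without vector/4OHT replicate T or A or shXPO7_5/4OHT replicate T, 14 without vector/4OHT replicate B, 7 without shXPO7_5/4OHT replicate B and 3634 without shXPO7_5/4OHT replicate A. Between the shRNAs, 2 genes were called. The number was 20 without a filter, 34 with the offset, 56 with the offset and the replicate block, 27 by DESeq2, 1 to 4 without 1 library, and 0 by edgeR when 2 groups were fitted alone, where 820 genes had an unadjusted p under 0.05. Without shXPO7_3/4OHT replicate T it was 4, and 1 without replicate A or B of that group or T or B of shXPO7_5/4OHT. Fewer libraries enter the fits without a library and of 2 groups, and the cause of the other moves was not tested.

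Uncalled values changed sign as follows. With the offset, shXPO7_3 gave LMNA -0.013 and EMD -0.0029 (-0.0031 with the block), shXPO7_5 gave LMNA -0.017, SUN2 -0.063 (-0.064 with the block) and TMPO 0.095, and the shRNAs gave LMNB2 -0.021, LMNA -0.0039 (-0.0042 with the block) and SUN1 -0.016. SUN1 with shXPO7_5 was 0.028 with upper-quartile factors. Without 1 library the ranges were -0.077 to 0.076 for LMNA, -0.054 to 0.074 for EMD, -0.12 to 0.016 for SUN2 and -0.034 to 0.12 for SYNE1 with shXPO7_3, and -0.21 to 0.0094 for TMPO, -0.052 to 0.0062 for SUN1 and -0.18 to 0.013 for SYNE1 with shXPO7_5. By longest transcript, the LMNB1 share differed by -5.49 and the SYNE1 share by 11.5 percentage points after 4OHT.

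Whether library letters T, A and B or C pair the samples was not settled. Of 15 same-letter correlations of deviations, 8 exceeded 0.1 (range -0.23 to 0.59). In all, 6 of 12 libraries correlated best with 1 of their own letter. Correlations between different letters were not summarised beside these, so the counts cannot decide it. With the replicate block 5041 genes had an unadjusted p under 0.05 with shXPO7_5 by edgeR, against 3302 without it. The replicate block alone changed no call of a member. Depth limits SYNE2 most, at 148 to 761 counts a library.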
